A study of Homo sapiens with 8 samples.

Results

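In HCT15 colorectal cancer cells, 974 distal chromatin sites carried overlapping regions of H3K23su and H3K27ac peaks that were found in the parental line and not in a 5-fluorouracil (5-FU)-resistant line derived from it. The sites were chosen by the presence and absence of peaks. Peaks of the 4 libraries of each mark were merged where they overlapped or touched, and a merged region was called Pa-only when it held a peak of both parental libraries and of neither resistant library. An autosomal Pa-only H3K23su region became a member when it overlapped a Pa-only H3K27ac region by at least 1 bp and when its midpoint lay over 1 kb from every protein-coding transcription start site (TSS). The 974 members, here called losses of both marks, are 0.933% of the 104386 autosomal distal H3K23su regions and are drawn from 122500 H3K23su regions in all. Of the autosomal distal H3K23su regions, 5.31% were Pa-only (5547 regions), and of the 114536 autosomal distal H3K27ac regions, 4.66% were Pa-only. The reverse class, with both marks in both resistant libraries and neither mark in the parental libraries, held 3269 regions and is called gains of both marks.

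HCT15 is an established human colorectal cancer line. The sample labels give the parental cells, HCT15-Pa, a treatment with DMSO, the solvent, and give the resistant cells, HCT15-FR, 20 μg/ml 5-FU. According to the study's methods, the resistant cells were moved to drug-free medium before experiments, so the comparison is of a line selected on the drug, a single derivative, with its parent. Each line had 2 H3K23su and 2 H3K27ac libraries made by CUT&Tag from the same number of fresh cells, and no source states whether the 2 libraries of a group came from separate cultures. The lists hold between 65364 and 68365 H3K23su peaks and between 70600 and 76676 H3K27ac peaks, with no read counts, so the depth behind a peak is unknown and the spike-in DNA that the labels mention cannot be used. Median peak widths were 386 and 387 bp for H3K23su in HCT15-Pa cells against 447 and 451 bp in HCT15-FR cells. A region counted as lost had no resistant-line peak of its mark at the authors' threshold, which is not a measurement that the mark was gone, and 18 members also overlapped an HCT15-FR H3K27ac peak of a second H3K27ac region.

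CUT&Tag directs a transposase to chromatin with an antibody, so that sequenced fragments pile up where the antigen lies. Acetylation of histone H3 at lysine 27 (H3K27ac) marks active promoters and enhancers, the distal elements at which transcription factors gather to act on a promoter that can lie far away. Succinylation adds a larger, acidic group to lysine, and on lysine 23 of the same histone it was profiled here beside H3K27ac. In colon epithelium, distal elements are read by factors that fix cell identity, among them HNF1 and HNF4 proteins, CDX2, GATA and GRHL factors, by the Wnt effectors TCF/LEF, and by inducible AP-1 dimers.

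The sequences at the centres of the highest-ranked members show the DNA at which peaks of both marks were lost. Members were ranked by their lowest percentile over the 4 parental lists, where the percentile places a peak's score within its own list. The score, a column without a header, is taken as the −log10 of the MACS2 P value because the study's own peak table heads the same scores that way. The lines below give the midpoint and 75 bases to either side of it for the first 5 members, on the plus strand of hg19, with the nearest protein-coding gene in brackets. Capitals mark letters of any of the 13 motifs searched.
chr21:11186420-11186570 (TPTE): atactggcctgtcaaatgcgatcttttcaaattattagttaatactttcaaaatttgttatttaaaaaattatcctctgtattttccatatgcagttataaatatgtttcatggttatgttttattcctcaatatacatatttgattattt
chr5:180455001-180455151 (BTNL9): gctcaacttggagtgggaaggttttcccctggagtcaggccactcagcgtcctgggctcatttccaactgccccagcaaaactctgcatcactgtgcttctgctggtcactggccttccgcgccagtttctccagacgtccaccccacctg
chr13:110489298-110489448 (IRS2): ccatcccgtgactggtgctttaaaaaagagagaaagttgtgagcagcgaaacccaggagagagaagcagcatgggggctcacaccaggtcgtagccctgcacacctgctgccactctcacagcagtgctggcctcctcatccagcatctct
chr13:95201637-95201787 (TGDS): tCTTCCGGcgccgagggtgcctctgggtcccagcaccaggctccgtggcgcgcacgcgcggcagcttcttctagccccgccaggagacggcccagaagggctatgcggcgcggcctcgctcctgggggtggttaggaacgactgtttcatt
chr13:27319186-27319336 (GPR12): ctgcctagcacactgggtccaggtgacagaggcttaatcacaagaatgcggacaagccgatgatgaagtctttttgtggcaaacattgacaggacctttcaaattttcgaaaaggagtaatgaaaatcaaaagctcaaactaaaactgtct
In the bases shown for these 5, only the member nearest TGDS held a motif, the ETS letters CCGGAAG on the minus strand. The motif counts below use a wider window, 200 bp to either side of the midpoint. In it the BTNL9 member also held ETS letters and the IRS2 member FOX letters. The next 3 lines show further members, chosen by rank, in which the 75 bases to either side held the NRF2/BACH letters GCTGAGTCA or the HNF1 letters GTTAATNAT. Both were more frequent at losses than at gains when GC content was taken into account. The HNF1 letters were in only 15 members and were not distinguishable from gains as counted.
chr1:28640589-28640739 (MED18): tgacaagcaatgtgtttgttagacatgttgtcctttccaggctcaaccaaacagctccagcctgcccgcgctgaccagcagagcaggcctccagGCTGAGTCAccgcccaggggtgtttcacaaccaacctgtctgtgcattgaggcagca
chr17:20119724-20119874 (SPECC1): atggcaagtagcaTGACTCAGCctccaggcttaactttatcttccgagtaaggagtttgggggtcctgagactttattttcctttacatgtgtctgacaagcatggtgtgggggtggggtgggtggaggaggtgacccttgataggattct
chr9:103126482-103126632 (TEX10): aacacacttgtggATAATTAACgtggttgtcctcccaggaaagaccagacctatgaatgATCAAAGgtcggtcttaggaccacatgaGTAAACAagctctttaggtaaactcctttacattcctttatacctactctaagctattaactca
In the first of these lines the capitals read GCTGAGTCA on the plus strand, and in the second they lie on the minus strand. The member nearest TEX10 combined HNF1, TCF/LEF and FOX letters within its central window.

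The member with the highest rank was chr21:11186164-11186826, an intergenic region of 663 bp that lay 196 kb from the TSS of TPTE, a gene known for expression in testis. Its H3K23su scores were 10.8 and 13.9 and its H3K27ac scores 18.4 and 26.5 in the parental libraries 1 and 2. Its midpoint lay 1.64 kb from an assembly gap, and its closest resistant-line peak was 19.9 kb away. This member stood well above the next ones, since its lowest percentile was 98.9 and that of the second was 92.2. The second, chr5:180454709-180455443 near BTNL9, a butyrophilin-like gene, had H3K23su scores of 7.10 and 7.53 and H3K27ac scores of 10.3 and 10.6. Of the first 10 members, 5 were on chromosome 13. The best ranked of these was chr13:110488976-110489770, an intergenic region 50.4 kb from IRS2, an adaptor of the insulin receptor, with H3K23su scores of 8.36 in both libraries and H3K27ac scores of 10.3 and 11.8. The H3K27ac region there covered the whole H3K23su region. The intergenic member chr13:95200934-95202489, which lay 46.7 kb from TGDS and was the widest of the 10 at 1556 bp, had H3K23su scores of 6.92 and 7.21 and H3K27ac scores of 9.67 and 9.13. The member chr13:27318710-27319811, 15.2 kb from the orphan receptor gene GPR12, scored 6.14 and 6.38 for H3K23su and 10.2 and 11.9 for H3K27ac, and the closest resistant-line peak of either mark was 36.4 kb away. For H3K27ac, both parental scores exceeded both H3K23su scores at each of these 5 sites. Each library was scored on its own, so the scores do not compare amounts of the marks. The member chr18:37379540-37380289 lay 2155 kb from PIK3C3, a lipid kinase gene, so the nearest gene names a position and not a target. Inside genes, chr3:45452120-45452968 was intronic to LARS2, which codes for mitochondrial leucyl-tRNA synthetase, and chr13:111071457-111072704 was intronic to the type IV collagen gene COL4A2, 5.07 kb from a TSS. Another of the 10, chr8:49426710-49427712, was intergenic and 215 kb from CLXN. Within 200 bp of its midpoint it had the highest GC content of the 10, 74.8%, against 34.7% at the TPTE site.

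Over all 974 members, the parental peaks were of ordinary strength. The median H3K23su score was 4.47 in parental library 1, with a range from 3.10 to 10.8, and 4.42 in library 2, with a range from 3.10 to 13.9. For H3K27ac the medians were 4.45, from 3.05 to 18.4, and 4.40, from 2.99 to 26.5. These medians sat between the 50.7th and the 54.0th percentile of their own lists. At or above the 90th percentile were 50 and 47 members for H3K23su and 19 and 27 for H3K27ac, so that few losses were among the strongest parental peaks. H3K23su regions with both marks in all 4 libraries, the constant sites, had median parental percentiles of 69.4 and 68.7, and distal H3K23su losses without any H3K27ac peak had 34.4 and 33.6. Across members, Spearman's rho between the percentiles of both parental libraries was 0.35 for H3K23su and 0.54 for H3K27ac, over 974 regions of the same libraries. Between the marks it was 0.24 in library 1 and 0.31 in library 2, not far below the 0.35 between the H3K23su libraries. These values therefore do not show how closely the marks went together. The percentiles rank parental peaks and do not measure how much of a mark was lost.

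**Figure D1:**
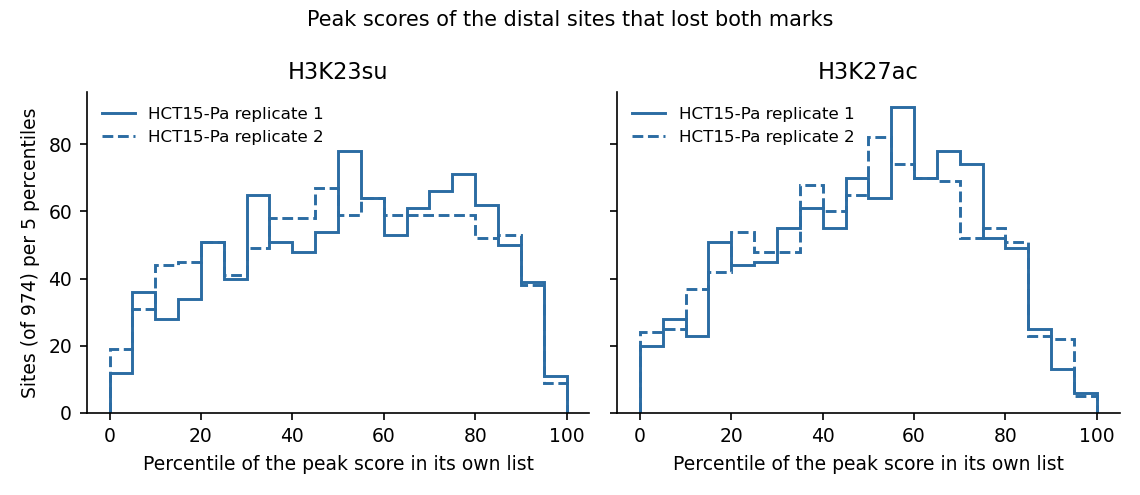
Number of members per 5 percentiles (y axis) against the percentile of the peak score within its own list (x axis), for H3K23su (left) and H3K27ac (right) in parental libraries 1 (solid) and 2 (dashed). Members spread over the whole range, with medians between 50.7 and 54.0 and few sites at the right edge.

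The members were 153 to 3654 bp wide, with a median of 649 bp, close to the 620 bp of gains and below the 1018 bp of constant sites. The overlapping Pa-only H3K27ac regions had a median width of 619 bp and covered a median of 82.1% of the H3K23su region, and 241 members (24.7%) lay wholly inside H3K27ac. The midpoints of both marks were a median of 97 bp apart. Only 148 members (15.2%) were covered for less than 50%, and the smallest overlap was 4 bp. Of the 5547 Pa-only distal H3K23su regions, 1780 (32.1%) had no H3K27ac peak in any library, and the members made up 17.6%. A further 901 had H3K27ac in 1 parental library alone, 589 overlapped an H3K27ac region present in all 4 libraries, and 65 overlapped an FR-only H3K27ac region. Near the limits of the rule, the midpoint of the member closest to a TSS lay 1030 bp from it, and the farthest region left out for proximity lay 904 bp from CPEB2. A region on chromosome 17, chr17:70350176-70350527, missed the Pa-only H3K27ac overlap by 6 bp.

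Many members lay close to peaks that the resistant line still had, and gains lay at least as close to peaks of the parental line. The closest HCT15-FR peak of either mark was a median of 8.24 kb from the edge of a member. Of the 974 members, 138 (14.2%) had one within 1 kb and 541 (55.5%) within 10 kb, the 18 overlapping ones included. For gains, the closest HCT15-Pa peak of either mark was a median of 4.79 kb away. It lay within 1 kb of 14.8% of gains and within 10 kb of 71.4%. The closest constant site of both marks was a median of 67.1 kb away, and the closest gain 311 kb away. A gain lay within 10 kb of 27 members (2.77%).

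The losses were not spread evenly over chromosomes. Chromosome 13 held 66 members, 1.94% of its 3401 distal H3K23su regions (95% exact binomial interval 1.50 to 2.46), and chromosome 18 held 43, 1.82% of 2360 (1.32 to 2.45). Both intervals lay above the 0.933% over all autosomes. The lowest share was on chromosome 19, 18 of 3016 regions or 0.597%, with an interval that reached the overall share (0.354 to 0.942). Chromosome 3 with 41 of 6713, 0.611% (0.439 to 0.828), and chromosome 1 with 71 of 10123, 0.701% (0.548 to 0.884), had intervals below it. Gains ran from 2.44% on chromosomes 13, 17 and 22 to 3.85% on chromosome 4. The number of losses per gain was highest on chromosome 13 at 0.795, followed by chromosome 18 at 0.581, and lowest on chromosome 3 at 0.177. The intervals treat regions as independent, and neighbouring regions of a chromosome are not. Within 500 kb of an assembly gap were 91 members (9.34%), against 6.06% of gains and 11.2% of constant sites.

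**Figure D2:**
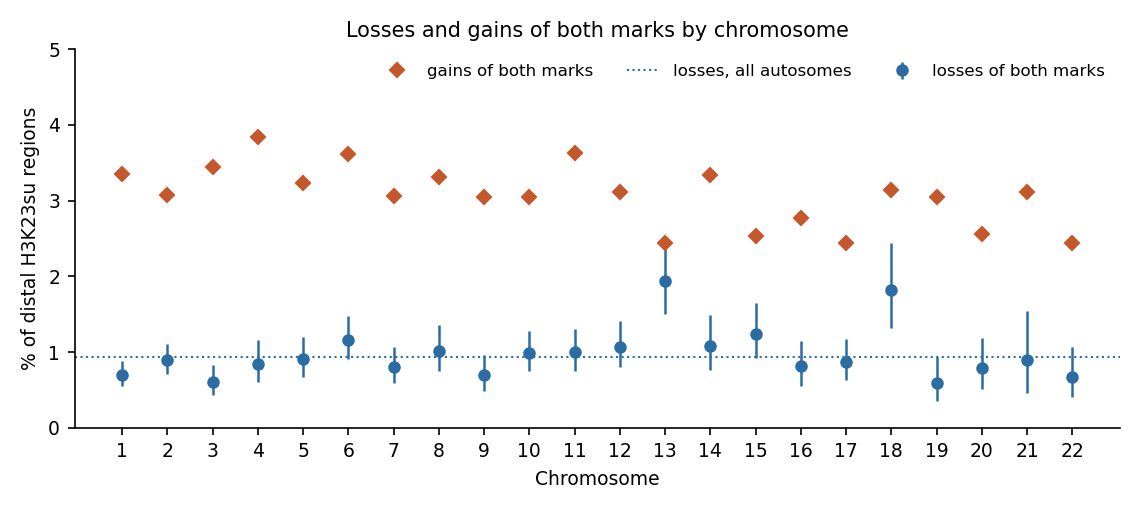
Percentage of autosomal distal H3K23su regions (y axis) that were losses (circles, 95% exact binomial intervals) or gains of both marks (diamonds) on each autosome (x axis), with the share of losses over all autosomes as a dotted line. Chromosomes 13 and 18 stand above the line at 1.94% and 1.82%, while the shares of gains lie between 2.44% and 3.85%.

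Members lay farther from genes and more often between them than the other classes. The median distance from a member to the nearest protein-coding TSS was 43.6 kb, against 29.2 kb for gains, 23.2 kb for constant sites and 24.8 kb for H3K23su losses without H3K27ac, and 255 members (26.2%) lay over 100 kb from any. By midpoint, 516 members (53.0%) were intronic, 382 (39.2%) intergenic and 76 (7.80%) exonic, with genes of every type counted. Introns held 67.1% of gains, and the odds of an intronic position were lower at losses (odds ratio 0.551, 0.477 to 0.638 at 95% confidence, with a Benjamini-Hochberg adjusted p of 4.69e-15 over 9 Fisher's exact tests, two-sided throughout). The difference was larger against H3K23su losses without H3K27ac, of which 74.4% were intronic (odds ratio 0.388, 0.329 to 0.458, exact test, adjusted p = 6.34e-29). Intergenic sequence held 26.5% of gains, 27.5% of constant sites and 18.2% of H3K23su losses without H3K27ac, and the odds ratios of the members against them were 1.79, 1.70 and 2.90 (adjusted p at most 1.35e-13). The share of exonic members was not distinguishable from that of gains (exact test, odds ratio 1.25, 0.953 to 1.65, adjusted p = 0.121), and it was below the 10.3% of constant sites (odds ratio 0.738, 0.580 to 0.939, adjusted p = 0.0168). These tests compare regions of the same libraries, and regions are not replicates of a line.

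The letters of 13 transcription factor motifs were searched on both strands within 200 bp of each midpoint. Members were richer in G and C than gains, with a median GC content of 53.4% against 45.1%, and similar to constant sites at 53.9%. H3K23su losses without H3K27ac had 49.6%. Because base composition alone changes how often a given set of letters occurs, each comparison with gains is given as counted and as a Mantel-Haenszel odds ratio after grouping windows by GC content in steps of 5 percentage points, here called GC strata. Of the 13 motifs, 9 differed between losses and gains as counted, and 4 within strata. The 4 were AP-1, NRF2/BACH, FOX and HNF1, and HNF1 was not among the 9.

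AP-1 dimers of FOS and JUN proteins bind TGANTCA, letters that read the same on both strands. A match was present in 183 members (18.8%), in 32.2% of gains, in 25.9% of constant sites and in 13.1% of H3K23su losses without H3K27ac, against 18.7% of all autosomal distal H3K23su regions. The odds were lower at losses than at gains (odds ratio 0.488, 0.409 to 0.582, Fisher's exact test with adjusted p = 3.61e-15 over 39 tests), and the share was higher at losses on only 3 of 22 autosomes. Within GC strata the odds ratio was 0.664 (0.547 to 0.806, n = 974 losses and 3269 gains, adjusted p = 2.72e-04). Against constant sites it was 0.662 as counted (exact test, adjusted p = 3.60e-06) and 0.624 within strata. Against H3K23su losses without H3K27ac the direction was the other way, with an odds ratio of 1.54 (1.24 to 1.90, exact test, adjusted p = 4.60e-04), a call that was lost with the stronger 50% of each list (1.26, 0.940 to 1.70). The regions of that class had a lower median width and a lower median score percentile than the members.

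The NRF2/BACH letters GCTGAGTCA, which contain an AP-1 match and are read by NRF2 and BACH1 with small MAF partners in the response to oxidative stress, went against the shorter AP-1 letters. They were present in 33 members (3.39%), 1.50% of gains, 3.41% of constant sites and 0.730% of H3K23su losses without H3K27ac, against 1.73% of all distal regions. The odds ratio against gains was 2.30 (1.47 to 3.60, exact test, adjusted p = 0.00179). Within GC strata it was 2.45 (1.47 to 4.09, n = 974 losses and 3269 gains, adjusted p = 0.00389). Against H3K23su losses without H3K27ac it was 4.77 (2.50 to 9.10, exact test, adjusted p = 3.60e-06), and against constant sites 0.995 (0.694 to 1.43, adjusted p = 1). The call against gains was lost without the second HCT15-Pa H3K27ac library (1.56, 1.06 to 2.29, exact test, adjusted p = 0.0711) and when lists were limited to their stronger 50% (1.95, 1.10 to 3.46). Of the windows with an AP-1 match, 18.0% also held the longer letters at losses (33 of 183, 95% exact binomial interval 12.8 to 24.4), 4.66% at gains (49 of 1052) and 13.1% at constant sites (448 of 3407).

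Other motifs separated losses from gains as well. For FOX, TCF/LEF, GATA, CDX, HNF4 and RUNX letters, members lay nearer the share over all autosomal distal H3K23su regions than gains did. That share was 7.24% for FOX, 5.45% for TCF/LEF, 5.71% for GATA and 4.99% for CDX letters. For HNF4 letters it was 2.23%, against 1.95% of members and 3.49% of gains. For RUNX letters it was 8.04%, against 8.62% and 11.4%. It was 2.01% for ETS and 0.936% for HNF1 letters, below the members in both. The FOX letters TGTTTAC, read by forkhead factors such as FOXA proteins, were in 68 members (6.98%) and in 14.7% of gains (odds ratio 0.435, 0.334 to 0.567, exact test, adjusted p = 6.51e-10). Within GC strata the odds ratio was 0.543 (0.409 to 0.721, n = 974 losses and 3269 gains, adjusted p = 2.29e-04). The TCF/LEF letters CTTTGAT were in 44 members (4.52%) and 10.2% of gains, the GATA letters AGATAAG in 54 members (5.54%) and 10.7% of gains, and the CDX letters CCATAAA in 42 members (4.31%) and 8.50% of gains. Their odds ratios as counted were 0.419, 0.491 and 0.485 (adjusted p at most 3.43e-05) and within GC strata 0.694, 0.797 and 0.768, where the adjusted p were 0.125, 0.277 and 0.275. The HNF4 letters AAAGTCCA and the RUNX letters TGTGGTT passed as counted with an adjusted p of 0.0468 each, at odds ratios of 0.551 and 0.735, and not within strata. Without either HCT15-FR H3K23su library the HNF4 call was lost (0.653 and 0.664), and without the second HCT15-Pa H3K27ac library the RUNX call (0.790). ETS letters were in 29 members (2.98%) and 1.10% of gains, an odds ratio of 2.76 (1.68 to 4.52, exact test, adjusted p = 5.90e-04). Within strata it was 1.55 (0.903 to 2.65, n = 974 losses and 3269 gains, adjusted p = 0.230). Without the second HCT15-Pa H3K23su library the ETS call as counted was lost as well (1.63, 1.02 to 2.60, exact test, adjusted p = 0.104). HNF1 letters behaved in reverse. They were in 15 members (1.54%) and 0.948% of gains, with an odds ratio of 1.63 as counted (0.878 to 3.04, exact test, adjusted p = 0.290). Within strata it was 3.21 (1.63 to 6.29, n = 974 losses and 3269 gains, adjusted p = 0.00389). Like the other values within strata, this one was not rerun with a library left out. TEAD letters CATTCCA, KLF letters CCACACCC and GRHL letters AACCNGTT did not pass in either form, with odds ratios of 1.01 (0.791 to 1.28), 1.34 (1.00 to 1.79) and 1.01 (0.665 to 1.55) as counted. Against H3K23su losses without H3K27ac, ETS letters were more frequent at members as counted (odds ratio 2.25, 1.30 to 3.88, exact test, adjusted p = 0.0187) and not within strata (1.79, 1.02 to 3.14). That call was also lost without the second HCT15-Pa H3K23su library (1.35, 0.911 to 2.00) and without the second HCT15-Pa H3K27ac library (1.63, 1.02 to 2.61). TEAD letters did the reverse (n = 974 and 1780 regions), at 1.38 as counted (adjusted p = 0.0617) and 1.54 within strata (1.16 to 2.04, adjusted p = 0.0152). None of the 13 motifs was found in 458 members (47.0%).

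**Figure D3:**
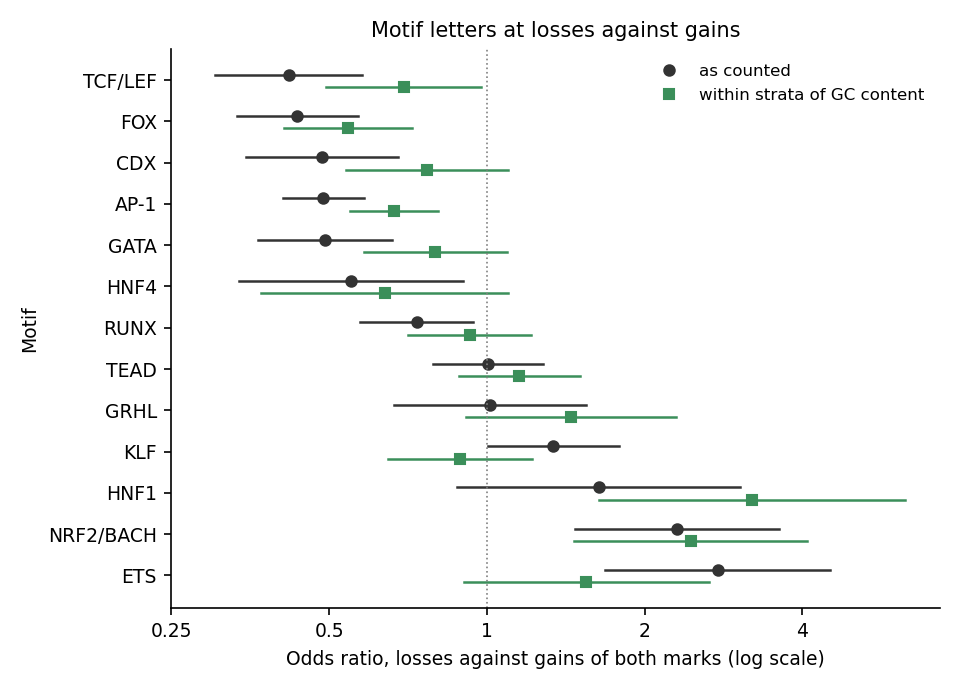
Odds ratio (x axis, log scale) of each of 13 motifs (y axis) at losses against gains of both marks, as counted (circles) and within strata of GC content (squares), with 95% intervals; the dotted line marks 1. Strata move FOX and AP-1 toward 1 but leave their intervals below it, take the interval of ETS across 1 and lift HNF1 to 3.21.

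The 974 members had 826 nearest protein-coding genes, of which 711 were nearest to a single member. ARRDC4, an arrestin-domain gene related to TXNIP, was nearest to the most, with 8 members between 17.1 and 188 kb from its TSS. The 4 upstream sites lay in a stretch of 231 kb that held no HCT15-FR peak of either mark, and their H3K23su scores were between 3.73 and 5.53 in both parental libraries. The widest of the 8, chr15:98685993-98687257, scored 4.46 and 4.11 for H3K23su and 3.28 and 4.24 for H3K27ac. Closer to the gene the loss was less sharp. The member 17.1 kb downstream of the TSS, chr15:98520680-98521350, had an H3K23su peak of HCT15-FR library 1 only 39 bp from its edge, and both lines kept both marks at the ARRDC4 promoter. In the window plotted around the gene, the parental libraries had 15 and 17 H3K23su peaks and the resistant libraries 3 and 2, and for H3K27ac they had 19 and 15 against 2 and 5. ARRDC4 was chosen for its 8 members, and their parental peaks are among those counted. Part of this difference was therefore fixed by the rule. No gain lay within 100 kb of ARRDC4.

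**Figure D4:**
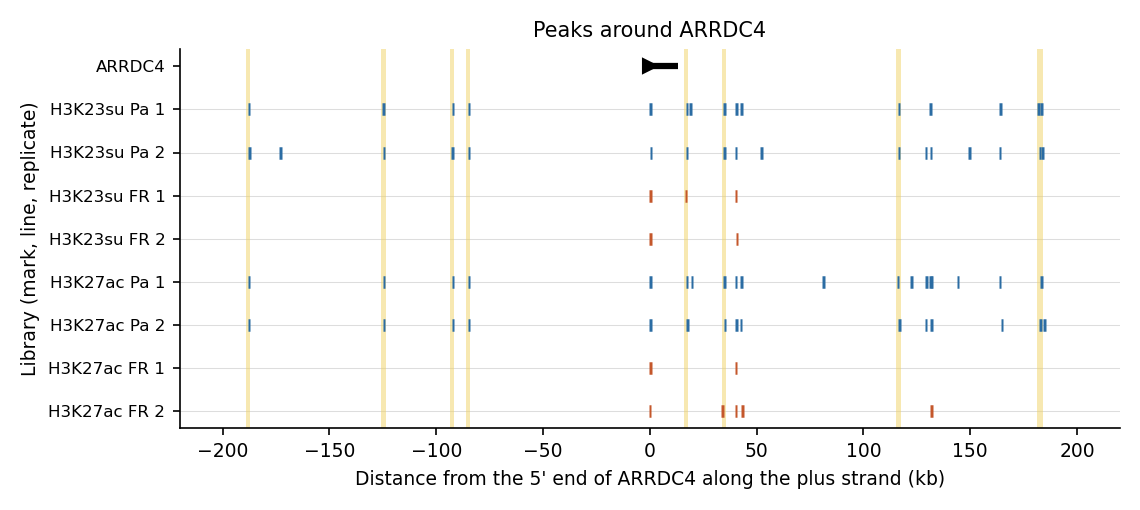
Peaks of the 8 libraries (rows, HCT15-Pa in blue, HCT15-FR in orange) around ARRDC4, by distance in kb from the 5′ end of the gene (x axis); yellow bands are members, the black bar is the gene and peaks under 1.2 kb are drawn at 1.2 kb. The 8 members nearest to ARRDC4 fall where parental rows have peaks, the resistant-line marks that touch the bands downstream of ARRDC4 are peaks 39 and 593 bp beside members, and the ARRDC4 promoter keeps peaks in all 8 rows.

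Other genes nearest to several members differed in what their promoters carried. TUBA3C, an alpha-tubulin gene, was nearest to 5 members on chromosome 13, between 92.8 and 484 kb away, and had no promoter peak in any library. MYT1L, a zinc finger factor gene of neurons, was nearest to 4 members, 3 of them in its own introns and the fourth 333 kb from a TSS, and its promoter held H3K27ac in both parental libraries and in neither resistant one. LRRC4C, which codes for a synaptic adhesion protein, was nearest to 4 members at distances from 213 to 1430 kb. The 4 members nearest to DIP2C were intronic, between 76.0 and 142 kb from a TSS, in a gene with 9 constant sites within 100 kb and both marks at its promoter in all libraries. In order of position, the closest resistant-line peaks lay 4525, 1902, 0 and 9536 bp from these members. GLI2, the Hedgehog transcription factor, had 3 members within 25.6 kb, of which chr2:121528568-121529571 scored 4.83 and 6.04 for H3K23su and 7.73 and 10.3 for H3K27ac. ITGB6, the integrin beta chain of epithelia, was nearest to 3 members, of which 2 lay in its own introns, and had no promoter peak, beside 6 constant sites within 100 kb. DUSP6, a phosphatase of ERK kinases, was nearest to 3 members, and at chr12:89619234-89619818 the H3K27ac scores of 13.7 and 10.2 exceeded the H3K23su scores of 4.69 and 6.09. GPR12 and the glypican gene GPC5 were nearest to 3 members each and had no promoter peak, as had the histone gene H3-7, whose members lay 102 to 170 kb away. Of the 15 genes with 3 or more members within 100 kb of a TSS, 3 were the near-identical copies TP53TG3, TP53TG3D and TP53TG3F on chromosome 16, so the assignment of peaks among them is uncertain.

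Promoters were not members by the rule, but their state was read in the same 8 libraries. Of the 624 genes that were nearest to a loss and to no gain, 322 (51.6%) had both marks within 1 kb of a TSS in all 4 libraries of each mark, against 1457 of 2191 genes (66.5%) nearest to a gain and to no loss. By Fisher's exact test, two-sided, the odds ratio was 0.537 (0.449 to 0.643, adjusted p = 7.92e-11 over 4 states), and 202 genes nearest to both were left out. Promoters with a peak of at least 1 mark in both parental libraries and of neither mark in any resistant library, called HCT15-Pa only, were found at 34 of the loss genes (5.45%) and at 35 of the gain genes (1.60%), an odds ratio of 3.55 (2.20 to 5.74, exact test, adjusted p = 1.00e-06). Over all 18886 autosomal protein-coding genes the shares were 56.1% and 2.03%. No peak was listed at 22.8% of the loss genes and 15.5% of the gain genes (exact test, odds ratio 1.60, adjusted p = 5.32e-05), and all remaining states at 20.2% and 16.4% (odds ratio 1.29, adjusted p = 0.0304). Over all autosomal protein-coding genes these shares were 24.0% and 17.8%, so loss genes did not lack promoter peaks more often than all genes. The edge of a loss or gain reached the promoter window at 10 of the loss genes and 37 of the gain genes, and without them the odds ratios were 0.526 for both marks in all libraries and 3.44 for HCT15-Pa only. Genes of this kind outside that overlap were SH3GL2, an endophilin gene, with 3 members within 100 kb, and HUNK, a kinase gene, and NBEA, a neuronal scaffold gene, with 2 each. These 3 were named after their values were seen, as were the genes with 1 member in the lists below.

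**Figure D5:**
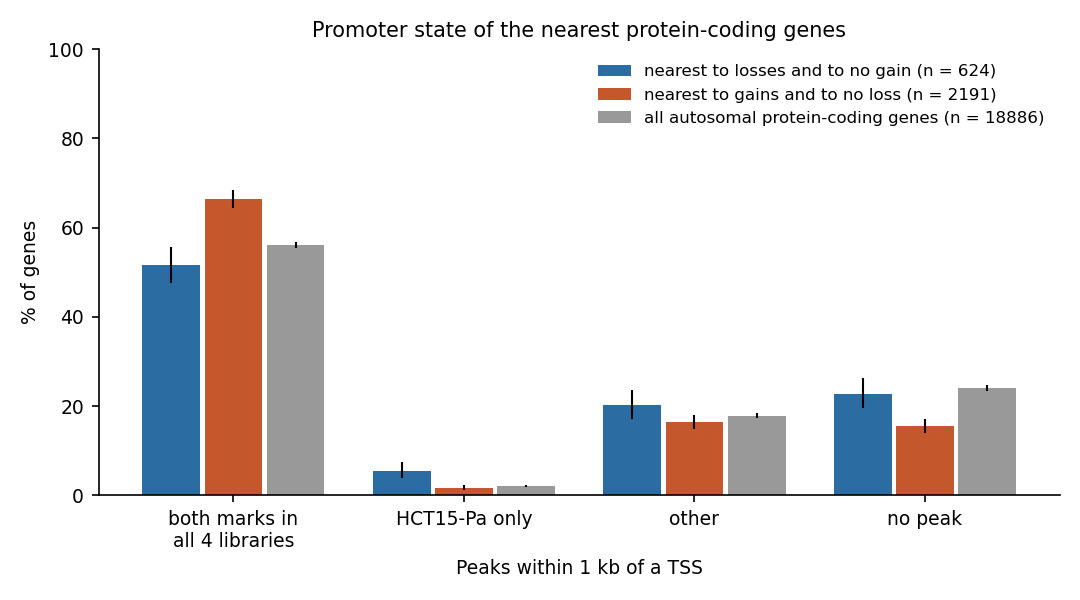
Percentage of genes (y axis, bars from 0 with 95% exact binomial intervals) by the peaks within 1 kb of their TSSs (x axis), for genes nearest to losses and to no gain (blue), genes nearest to gains and to no loss (orange) and all autosomal protein-coding genes (grey). Promoters with peaks in HCT15-Pa cells only make up 5.45%, 1.60% and 2.03%, and promoters with both marks in all libraries 51.6%, 66.5% and 56.1%.

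Within 100 kb of a TSS, 1688 of 18886 autosomal protein-coding genes (8.94%) had a member and 5199 (27.5%) had a gain. Of the 1688, 470 also had a gain, 1242 also had a constant site and 157 had 2 or more members. Gene lists are described by their counts beside these shares, without a test. A member within 100 kb is a position and does not tie it to the gene.

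Among 34 genes of intestinal and epithelial identity, 6 (17.6%) had a member and 10 (29.4%) had a gain. GRHL2, a grainyhead factor of epithelial junctions, had 2 members in its introns, 11.8 and 21.7 kb from a TSS. At the first its H3K23su scores were 3.92 and 4.83, and a resistant-line peak lay 580 bp from its edge. At the second they were 5.48 and 6.68, with the closest resistant-line peak 8022 bp away. EPCAM, the epithelial adhesion molecule, had 2 upstream members at 4.53 and 61.5 kb, 5 constant sites and no gain within 100 kb, and kept both marks at its promoter in all libraries. The mucin gene MUC2 and GPA33, a colon surface antigen, had 1 each. A resistant-line peak lay 304 bp from the edge of the EPCAM member at 61.5 kb and 195 bp from that of the MUC2 member.

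The glutathione and NRF2 list had the highest share, 7 of 24 genes (29.2%), the same as its share with a gain. Of these, 3 were AKR1C1, AKR1C2 and AKR1C3, neighbouring genes of aldo-keto reductases that share 1 member, chr10:5014979-5015298, an intronic site of AKR1C1 with H3K23su scores of 4.25 and 3.56 and H3K27ac scores of 3.75 and 3.19. The promoters of AKR1C1 and AKR1C3 had peaks in HCT15-Pa cells only, and these genes are similar in sequence. The others were GPX2, HMOX1, SRXN1 and TALDO1. The member at GPX2 overlapped an HCT15-FR H3K27ac peak of a second region, and the promoters of HMOX1, which codes for heme oxygenase, and of SRXN1 kept both marks in all libraries.

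Of 31 genes of 5-FU and pyrimidine metabolism, 6 (19.4%) had 1 member each and 10 (32.3%) had a gain. DUT, the enzyme that breaks down dUTP, had the strongest of these members, chr15:48680509-48680989 at 56.1 kb, with H3K23su scores of 6.89 and 5.45 and H3K27ac scores of 5.08 and 7.55. TK1, thymidine kinase, had a member on an exon, and SLC29A1, a nucleoside importer, and SHMT2, the mitochondrial serine hydroxymethyltransferase, had members in neighbouring genes. The drug exporter genes ABCB1 and ABCC4 had a member 72.3 and 97.2 kb from a TSS, and at ABCB1 a resistant-line peak lay 308 bp from its edge. At SLC29A1 a resistant-line peak lay 368 bp from the edge of the member. All 6 genes had both marks at their promoters in all libraries. None of the 6 members lay within 10 kb of a TSS of these genes.

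Of 28 hypoxia and glycolysis genes, 5 (17.9%) had a member and 12 (42.9%) had a gain. The 5 were NDRG1, PFKFB3, ALDOA, LDHA and SLC16A3. A resistant-line peak lay 320 bp from the edge of the PFKFB3 member and 278 bp from that of the LDHA member. Of 29 genes of TGF-beta and BMP signalling, 5 (17.2%) had a member and 14 (48.3%) had a gain, and the SMAD7 site, chr18:46404643-46405728, scored 5.89 and 4.71 for H3K23su and 6.50 and 6.89 for H3K27ac. SMAD7, an inhibitor of the pathway, had 10 constant sites within 100 kb. SMAD5, ID3 and TGIF1 had 1 each as well. Of 18 ErbB and MET receptors and ligands, 3 (16.7%) had a member and 6 (33.3%) had a gain. The 3 were the ligand genes TGFA and AREG and the receptor gene MET, which also had 4 gains within 100 kb. Of 26 Wnt targets and colon stem genes, 3 (11.5%) had a member and 11 (42.3%) had a gain. APCDD1, a Wnt inhibitor, had its member 1.09 kb from a TSS and no gain, and a resistant-line peak lay 226 bp from the edge of this member. AXIN2, a scaffold of the beta-catenin destruction complex, had its member 7.24 kb upstream. ZNRF3, a ligase that removes Wnt receptors, had 3 gains and a member with a resistant-line peak 403 bp from its edge. The promoters of these 3 genes kept both marks in all libraries. Of 27 Hippo pathway genes and YAP targets, 3 (11.1%) had a member, MOB1A, VGLL4 and FOXF2, and 13 (48.1%) had a gain. At MOB1A a resistant-line peak lay 177 bp from the edge of the member. Notch genes were near the background with 2 of 23 (8.70%), MAML2 and RFNG, and 11 (47.8%) had a gain. None of the 17 AP-1 factor genes had a member within 100 kb, although 5 (29.4%) had a gain. Within 500 kb, 9 of these 17 genes (52.9%) had a member, against 34.0% of all genes.

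The study named genes at regions where its own measure of H3K23su signal decreased. It chose them on these samples, so their count is not independent evidence of a direction. Of the 13 that are autosomal, 2 (15.4%) had a member, GRHL2 among them. MGST1, a glutathione transferase of membranes, AK4, an adenylate kinase, and CD44, a receptor for hyaluronan, had no member within 100 kb but had promoter peaks of both marks in HCT15-Pa cells only, and NLRP2 had H3K27ac alone in that pattern. HNF4A, KLF3, KLF9, GFPT1 and THRA kept both marks at their promoters in all libraries and had no member. AGT and NOTCH3 had none either, and NOTCH3 had no promoter peak.

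The labelled cell type was checked at promoters. Of 10 colon epithelium markers, 9 had an H3K27ac peak in each of the 4 H3K27ac libraries and for H3K23su 7 had a peak in each HCT15-Pa library and 9 in each HCT15-FR library. Of 5 immune markers 1 or 2 had a peak in a library, and of 5 measured markers of fibroblasts and endothelium 0 to 2. PTPRC and CD3E of immune cells and COL1A2, DCN and VWF of fibroblasts and endothelium had no peak in any library.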

How the data were processed

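Peaks of H3K23su and H3K27ac were measured by CUT&Tag in 8 libraries, 2 for each of 4 groups. Per the study's methods and processing notes, the authors aligned reads to hg19 with Bowtie2, filtered for unique, properly paired, deduplicated pairs (SAMtools), and ran MACS2 on each library, and HOMER 4.10 is also listed. The deposited score of a peak, in a column without a header, was taken as the −log10 of its MACS2 P value, and the lists hold no read counts, so depth per sample is unknown and intervals cover counting of regions only. Here, peaks were merged, classed by presence and tested with Fisher's exact test (two-sided, Benjamini-Hochberg adjusted), or with the Mantel-Haenszel test over GC strata, using scipy 1.17.1, pandas 2.3.3, numpy 2.4.6, pysam 0.24.0 and matplotlib 3.10.9 in Python 3.11.15. The classes and the motif search were checked on simulated data. TSSs came from GENCODE release 44 on hg19, and chromosomes X and Y were left out, with 4 listed genes that are not autosomal. Named were the 10 members with the highest lowest percentile, the 12 genes nearest to the most members, listed genes with 2 or more members and the genes the study named, and some of these are not reported here. Members, lists and motifs were chosen with earlier results of these data known. Alternatives left out each library, changed merging, overlap, distance, score and window limits, stratified by GC content and applied the rule within replicate numbers.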

Additional observations from a re-analysis of the deposited data

How the results depend on the processing

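The number of members depended on how many libraries had to hold or lack a peak. Applied within replicate numbers, that is with a replicate block of 1 library per line and mark, the rule gave 4313 sites for pair 1 and 4017 for pair 2, since each needs fewer libraries. Leaving out 1 library at a time gave 1147 to 1616 sites, with 1147 to 1235 when a resistant library was left out and 1509 to 1616 when a parental library was left out. Limiting each list to its stronger 50% gave 467 sites, and these retained 181 of the 974 members. Same-numbered libraries did not deviate together (Pearson r between the lines' replicate differences −0.00357 for H3K23su over 29230 regions and −0.00202 for H3K27ac over 33732), so the numbers were not taken as pairs. The count of motifs that differed from gains, 9, was 4 within GC strata, and HNF1, among the 4, was not among the 9. From constant sites 1 motif differed, and 2 did with a common minimum score, with peaks merged within 500 bp or without 500 kb around assembly gaps, 9 and 6 in replicate block pairs 1 and 2, and 1 to 4 without 1 library, with 2 to 4 when either H3K23su library of a line or a parental H3K27ac library was left out. From H3K23su losses without H3K27ac 3 differed, and 5 in replicate block pair 1. The cause of these moves was not tested. By Fisher's exact test, the odds ratio for NRF2/BACH letters against gains no longer passed with the stronger 50% (1.95, adjusted p = 0.0946) or without HCT15-Pa H3K27ac replicate 2 (1.56, adjusted p = 0.0711), nor that for ETS letters without HCT15-Pa H3K23su replicate 2 (1.63, adjusted p = 0.104). The excess of HCT15-Pa only promoters, an odds ratio of 3.55, was 2.59 (0.829 to 8.07, exact test, p = 0.108) with the stronger 50%. Against H3K23su losses without H3K27ac, the ETS call was also lost with 100 bases to either side (2.18) or with TSSs of any gene type (1.98). Intronic position and promoters with both marks kept their direction and passed under every alternative run, and no odds ratio followed through the alternatives reversed. Gene lists, counted without a test, changed side of the share over all genes with the window. Within 500 kb that share was 34.0%, and the AP-1 list stood above it (52.9%). The lists of TGF-beta and BMP (27.6%), hypoxia and glycolysis (32.1%) and study genes (30.8%) fell below it. Within 10 kb the 5-FU and ErbB lists had no member, against 1.09% of all genes. Leaving out the surroundings of assembly gaps, leaving out chromosome 13 from the count of members, leaving out promoters that a loss or gain reached, and the alternatives for the comparison with H3K23su losses without H3K27ac were chosen after seeing the data.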
